A study of Mus musculus with 2 samples.

Results

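RNA of primary mouse fibro-adipogenic progenitors (FAPs), the mesenchymal cells of skeletal muscle that can become adipocytes, was examined for the genes of integrins and other receptors that bind the extracellular matrix. The genes were chosen by symbol alone: the integrin α and β subunits, the 4 syndecans, Cd44, the discoidin domain receptors Ddr1 and Ddr2, and the dystroglycan gene Dag1. By this rule 34 of the 26082 genes were taken, and 7 of them, the leukocyte integrins, were set aside, which left 27. Of these 27, 17 had a mean level of at least 1 FPKM (fragments scaled by the exon length of the gene and the total of the library) over both libraries.

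The cells were wild type, were transfected with plasmids for TGFBR3, the type III TGF-β receptor, or with the vector, and were given an adipogenic medium in which insulin (10 µg/ml), dexamethasone (0.25 µM) and IBMX (0.5 mM) were added to DMEM with 20% FBS. Both libraries share the genotype, the transfection and the medium. The question of the comparison was what TGFBR3 overexpression changes in the transcriptome of FAPs. There was 1 library for each plasmid, so no difference between the groups could be tested, and the intervals given are exact 95% intervals for counting error only. They hold none of the spread between cultures, and in bulk RNA fewer cells of a type cannot be told apart from less RNA per cell.

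The libraries held 62321027 counts (labelled TGFBR3 OE) and 83779203 counts (labelled control). Tgfbr3 itself stood at 36.9 FPKM in the library labelled TGFBR3 OE and 35.1 FPKM in the library labelled control, a log2 ratio of 0.07, so the transfected gene was not raised by this measure and the libraries are named by their labels throughout. Every direction given rests on those labels, and would turn if they were crossed, which was not tested. The FAP markers Ly6a (1013 and 706 FPKM), Pdgfra (30.5 and 32.6 FPKM), Pdgfrb and Thy1 were high in both, while Dpp4, Pi16 and Lum were at 0.27 FPKM or below. Markers of other cells were low: the leukocyte list summed to 0.99 and 0.76 FPKM, with 4 of its 8 genes at 0 counts in both libraries and Ptprc at 0 and 4 counts. The sums were 2.23 and 2.06 FPKM for 7 endothelial genes, 1.34 and 0.96 for 4 myogenic genes, 0.57 and 0.49 for 3 Schwann cell genes, and 0.64 and 0.76 for 3 platelet genes. They were 10.1 and 9.60 FPKM for 6 mural genes, mostly Notch3, and 9.17 and 10.5 for 3 epithelial genes, almost wholly Krt19, with Epcam at 0.

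Integrins are pairs of an α and a β subunit that span the cell membrane and tie matrix proteins outside to the actin skeleton inside. The α subunit largely sets the ligand: some α subunits bind collagens, some bind laminins, and others bind the RGD motif of fibronectin and vitronectin. Itgb1 is the common partner of most of them, while αv pairs with several β subunits and, with some, activates latent TGF-β. Syndecans bind the matrix through heparan sulfate chains, CD44 binds hyaluronan, the discoidin domain receptors are kinases that respond to collagen, and dystroglycan binds laminin.

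The most abundant receptor genes were subunits of the fibronectin and vitronectin receptors and the syndecans. By FPKM, which is per length and so compares genes, Itgb1 was the highest in both libraries (292 FPKM labelled TGFBR3 OE and 230 FPKM labelled control), ranking 134 and 190 among all 26082 genes. Itgb5, Itga5, Sdc4 and Sdc3 followed, all at 85.6 FPKM or above in both libraries. A further 8 genes (Sdc1, Cd44, Dag1, Sdc2, Ddr1, Ddr2, Itga11 and Itgav) lay between 14.4 and 70.2 FPKM. The other 14 non-leukocyte genes were at 2.33 FPKM or below.

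**Figure D1:**
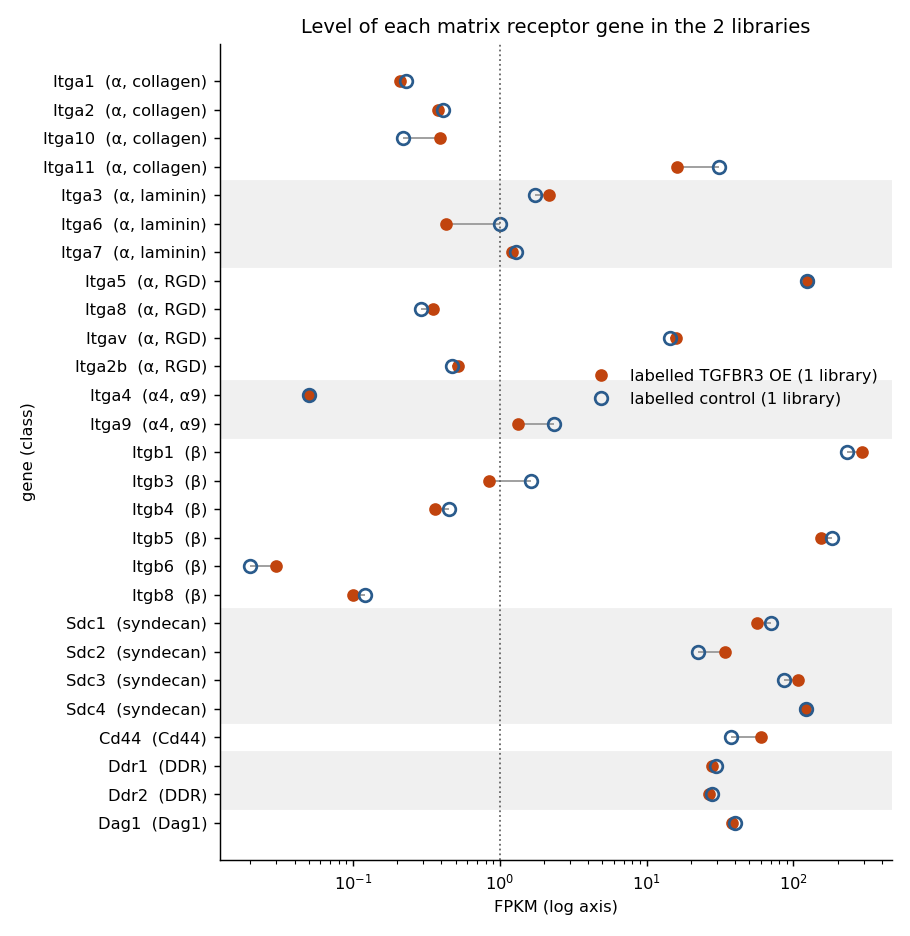
FPKM (log axis) of the 27 non-leukocyte receptor genes, grouped by class, with a filled point for the library labelled TGFBR3 OE and an open point for the library labelled control; the dotted line marks 1 FPKM. Itgb1 is the highest gene in both libraries, and for most genes the points lie close together, with Itga11, Itga6, Itgb3, Itga9, Sdc2 and Cd44 among those that stand apart.

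Differences between the libraries are given as the log2 ratio of (FPKM + 1), the library labelled TGFBR3 OE over the library labelled control, which understates the difference for low genes. None of the 34 genes was 2-fold higher and none was 2-fold lower on this scale, while 1.41% of all genes were 2-fold higher and 0.475% were 2-fold lower. At 1.5-fold, 2 genes were higher (Cd44 and Itgb7) and 1 was lower (Itga11), beside 6.46% and 2.33% of all genes. The median log2 ratio was −0.03 over the 27 non-leukocyte genes and 0.03 over all genes. For the 17 genes with a mean of at least 1 FPKM the median was −0.04, with 7 above and 10 below 0. Over the 11213 genes at that level it was 0.14, and 63.1% of them were above 0.

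The median gene with at least 1 FPKM in both libraries was thus higher by 0.15 on the log2 scale in the library labelled TGFBR3 OE. Centred values, in which this shift was taken out, are relative to that gene. By them 5 of the 17 receptor genes were above and 12 below 0, with a median of −0.19, beside 48.6% of all such genes below 0. Over all genes, ratios were also lower at higher GC content of the exons, and for many genes below the value with that trend removed is given too.

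**Figure D2:**
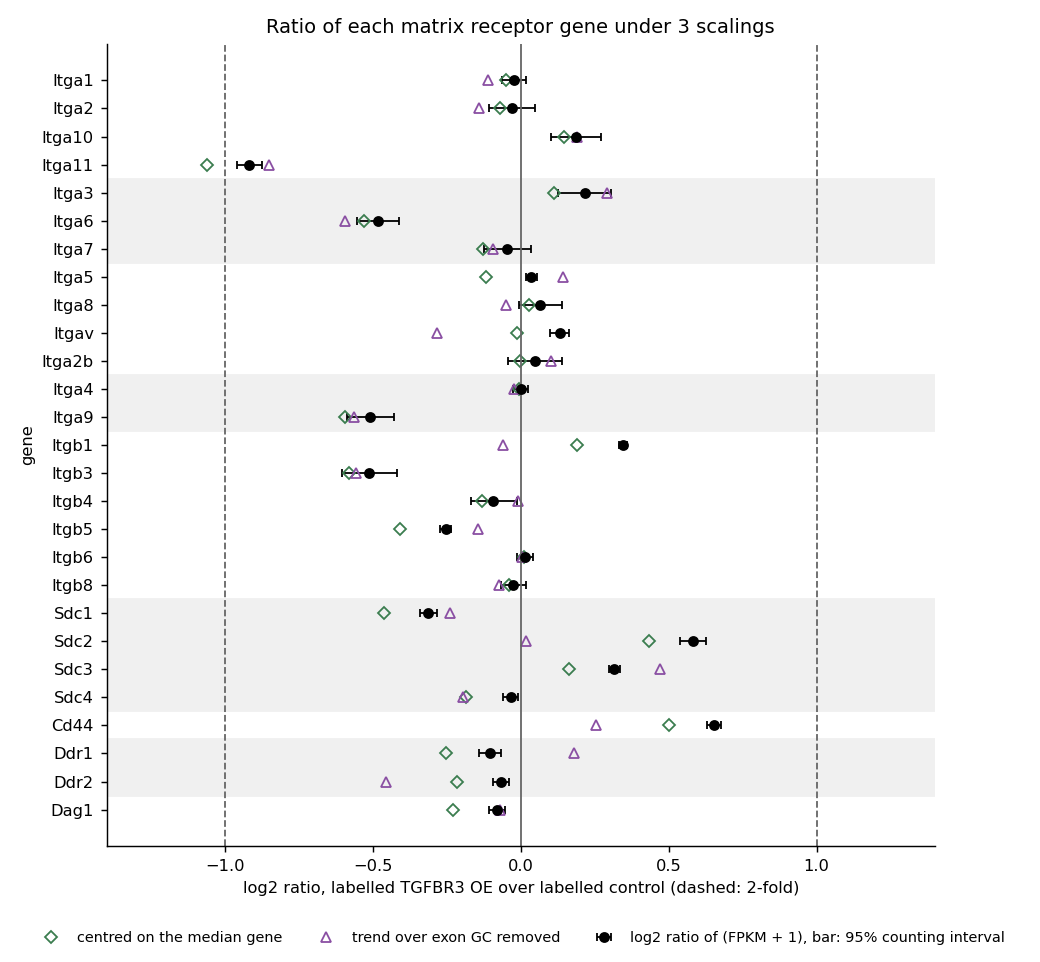
Log2 ratio of (FPKM + 1), the library labelled TGFBR3 OE over the library labelled control, for the 27 non-leukocyte genes (black points, bars: 95% counting intervals), with the value centred on the median gene (diamonds) and with the trend over exon GC content removed (triangles); dashed lines mark 2-fold. Itga11 is the lowest gene under all 3 scalings, and the triangles of Sdc2, Itgb1, Itgav, Ddr1 and Ddr2 lie far from their black points.

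On the log2 (FPKM + 1) scale the largest difference among the receptors was in Itga11, the α11 subunit, which binds fibrillar collagen and is typical of fibroblasts. Itga11 (chromosome 9, 62677826 to 62783982, plus strand, mm10) stood at 16.1 FPKM from 5608 counts in the library labelled TGFBR3 OE and at 31.3 FPKM from 14849 counts in the library labelled control. Without the added 1 the level was 1.94-fold lower in the library labelled TGFBR3 OE. The log2 ratio was −0.92 (95% counting interval −0.96 to −0.88), and 156 of the 11213 genes with a mean of at least 1 FPKM lay lower. Without the added 1, the less abundant Itga6, Itgb7, Itgad, Itgae and Itgal differed more. Centred on the median gene it was −1.06, the only receptor past 2-fold on that scale, where 2.35% of genes were 2-fold higher and 1.6% were 2-fold lower. With the GC trend removed it was −0.85.

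The other collagen-binding α subunits were all at 0.41 FPKM or below. Itga1 was at 0.21 and 0.23 FPKM (labelled TGFBR3 OE and labelled control, the order used from here on) and Itga2 at 0.38 and 0.41 FPKM, and the counting intervals of both ratios held 0. Itga10, a subunit best known from cartilage, was at 0.39 and 0.22 FPKM from 140 and 107 counts, with a log2 ratio of 0.19 (0.10 to 0.27) and 0.83 (0.46 to 1.21) without the added 1. Since 33.5% of its exonic bases overlap the predicted gene Gm42957 on the same strand, its count is uncertain. The 4 collagen-binding genes summed to 17.1 and 32.2 FPKM, nearly all of it Itga11.

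Of the laminin-binding α subunits, Itga3 and Itga7 were low and close between the libraries. Itga3 stood at 2.17 and 1.73 FPKM, a log2 ratio of 0.22 (0.13 to 0.31), and Itga7, the main laminin receptor subunit of muscle fibres, at 1.22 and 1.29 FPKM, with an interval that held 0. Itga6, whose product pairs with β1 or β4, differed more, with 0.43 FPKM from 267 counts against 1.0 FPKM from 844 counts. Its log2 ratio of −0.48 (−0.55 to −0.41) was −1.21 (−1.42 to −1.01) without the added 1, a level 2.32-fold lower in the library labelled TGFBR3 OE. It was the only non-leukocyte receptor past 2-fold in the plain ratio, by which 13.4% of genes above 3 counts in both libraries were 2-fold higher and 4.22% lower. The laminin-binding class summed to 3.82 and 4.02 FPKM.

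Among the RGD-binding subunits, Itga5, the fibronectin receptor subunit, dominated. It was at 126 FPKM (42160 counts) and 123 FPKM (56020 counts), which made the log2 ratio 0.04 (0.02 to 0.05), or −0.12 when centred and 0.14 with the GC trend removed. Itgav, the partner of β1, β3, β5, β6 and β8, was at 15.9 and 14.4 FPKM. Its log2 ratio of 0.13 (0.10 to 0.16) became −0.01 when centred and −0.28 with the GC trend removed, so no direction can be given for it. Itga8 (0.35 and 0.29 FPKM) and Itga2b, the platelet subunit (0.52 and 0.47 FPKM), were low, and both intervals held 0.

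Itga4 and Itga9 encode the pair of α subunits that bind VCAM1, tenascin and an alternatively spliced part of fibronectin. Itga4 was very low at 0.05 FPKM in both libraries, from 53 and 72 counts. Itga9 was at 1.34 FPKM (701 counts) and 2.33 FPKM (1660 counts). This gave a log2 ratio of −0.51 (−0.59 to −0.43), or −0.80 without the added 1, and it was lower by 0.60 when centred and by 0.56 with the GC trend removed.

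The β subunits were nearly all Itgb1 and Itgb5. Itgb1 (chromosome 8, 128685654 to 128733200, plus strand, mm10) had 80937 counts against 86715, a log2 ratio of 0.34 (0.33 to 0.36). Centring brought it to 0.19, and removal of the GC trend to −0.06, which turned its direction. Itgb5, which pairs with αv as a vitronectin receptor, was at 154 FPKM (37041 counts) and 183 FPKM (60219 counts). It had a log2 ratio of −0.25 (−0.27 to −0.24), −0.41 when centred and −0.14 with the GC trend removed.

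Itgb3, the other well-known vitronectin receptor subunit, was a minor gene here at 0.85 FPKM (341 counts) and 1.64 FPKM (894 counts). The log2 ratio was −0.51 (−0.60 to −0.42), −0.94 without the added 1, −0.58 when centred and −0.56 with the GC trend removed. Itgb4, the hemidesmosome subunit, stood at 0.36 and 0.45 FPKM, with a log2 ratio of −0.09 (−0.17 to −0.01), or −0.0081 with the GC trend removed. Itgb6 (15 and 16 counts) and Itgb8 (74 and 124 counts), whose αv pairs activate latent TGF-β in epithelia and other tissues, were at 0.12 FPKM or below in both libraries, and both intervals held 0.

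The make-up of the receptor pool differed in a few genes. Summed over the 13 non-leukocyte α subunits, the level was 165 and 177 FPKM, and over the 6 β subunits 447 and 416 FPKM. Itga5 made up 76.3% of the α sum in the library labelled TGFBR3 OE and 69.6% in the library labelled control, Itgav 9.63% and 8.16%, and Itga11 9.76% and 17.7%. On the β side Itgb1 made up 65.4% and 55.3%, and Itgb5 34.4% and 44.1%. These shares hold the GC trend: the log2 difference between Itgb1 and Itgb5, 0.60, was 0.09 with that trend removed.

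**Figure D3:**
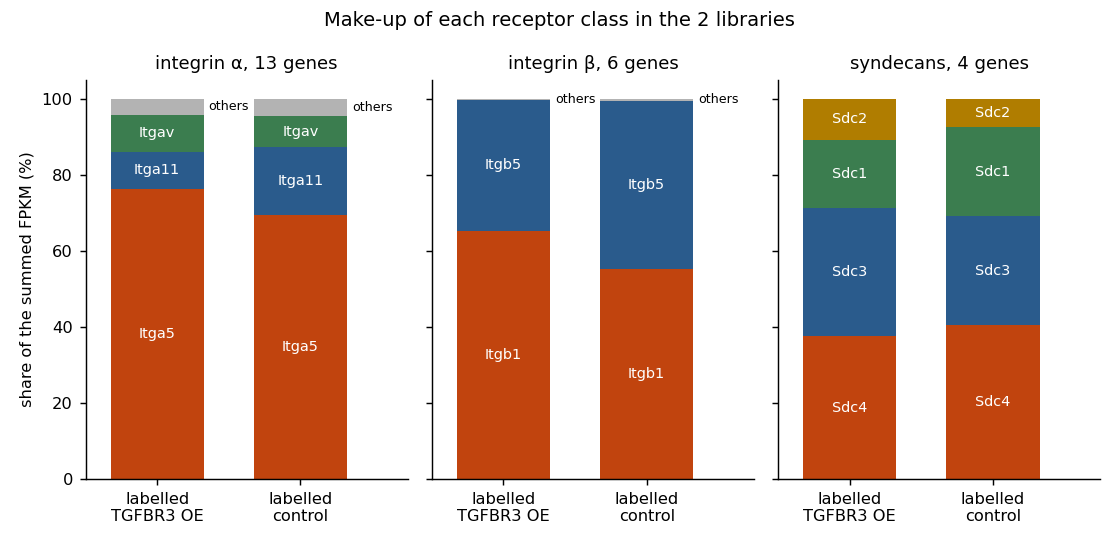
Share (%) of the summed FPKM of the 13 integrin α genes, the 6 integrin β genes and the 4 syndecan genes taken by each named gene in the library labelled TGFBR3 OE (left bar) and the library labelled control (right bar). Itga11 takes 9.76% of the α sum against 17.7%, and Itgb5 takes 34.4% of the β sum against 44.1%. The GC trend is not removed from these shares.

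Ratios between genes of the same library need no scaling between libraries. Itga11 stood at 0.128 of Itga5 in the library labelled TGFBR3 OE and at 0.255 of it in the library labelled control. The difference of their log2 ratios was −0.99 (95% counting interval −1.04 to −0.95), and −0.995 with the GC trend removed. Their exons are alike in GC content (55.4% and 56.8%) and in length (5131 and 4933 bases). Itgb1 stood at 1.9 times Itgb5 in the library labelled TGFBR3 OE and 1.25 times Itgb5 in the library labelled control, a log2 difference of 0.60 (0.58 to 0.62). Here the exons differ in GC content (44.5% and 56.7%), and with the GC trend removed the difference was 0.09. Itga5 was at 7.93 and 8.52 times Itgav, a log2 difference of −0.10 that turned to 0.43 with the GC trend removed, and Itgb3 at no more than 0.00894 of Itgb5 in either library.

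Of the 7 leukocyte integrins, 5 were at 0.13 FPKM or below in both libraries, and Itgb2 and Itgb7 were higher. Itgb2, the common β subunit of that class, was at 1.12 FPKM in both libraries (233 and 315 counts), with a log2 ratio of 0.00 (−0.13 to 0.13). Its α partners were almost absent: Itgal had 10 and 4 counts, Itgam 11 and 0, Itgax 0 and 4, and Itgad 11 and 55. Itgam shares 68.7% of its exonic bases with the predicted gene Gm49368 on the same strand, so its count is uncertain. Itgae had 13 and 8 counts.

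Itgb7, which in lymphocytes pairs with α4 or αE, was the only one of them that was 1.5-fold different on the log2 (FPKM + 1) scale. It stood at 1.47 FPKM (277 counts) in the library labelled TGFBR3 OE and 0.59 FPKM (153 counts) in the library labelled control, a log2 ratio of 0.64 (0.50 to 0.76). Without the added 1 it was 1.30 (1.01 to 1.60), one of 3 of 32 receptors that were 2-fold higher on that scale, where 13.4% of genes were 2-fold higher and 4.22% were 2-fold lower. The other two were Itgae and Itgal, whose plain intervals held 0, and the 2 that were 2-fold lower were Itga6 and Itgad. Its value was 0.55 when centred and 0.73 with the GC trend removed. Of the 8 leukocyte markers, Ptprc, Tyrobp, Fcer1g, Adgre1 and Cd52 had between 0 and 4 counts beside it, Csf1r had 182 and 210, Coro1a 76 and 84, and Laptm5 35 and 19. The part of other cells in the Itgb7 level was not tested. Both of its partners, Itga4 and Itgae, were at 0.05 FPKM or below.

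All 4 syndecans were well expressed. Sdc4, the form found at focal adhesions, stood at 119 FPKM (20548 counts) and 122 FPKM (28661 counts), with a log2 ratio of −0.03 (−0.06 to −0.01), or −0.20 with the GC trend removed. Sdc3 was at 107 FPKM (43390 counts) and 85.6 FPKM (47354 counts), with a log2 ratio of 0.32 (0.30 to 0.33), 0.16 when centred and 0.47 with the GC trend removed. With a trend over exon length removed in place of GC it was 0.04.

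The other pair of syndecans differed in opposite directions. Sdc1 stood at 56.3 FPKM (14547 counts) and 70.2 FPKM (24697 counts), and its log2 ratio was −0.31 (−0.34 to −0.28), or −0.46 when centred and −0.24 with the GC trend removed. Sdc2, the main syndecan of many mesenchymal cells, was at 34.2 FPKM (8171 counts) and 22.5 FPKM (7319 counts), a log2 ratio of 0.58 (0.54 to 0.63). The Sdc2 value was 0.43 when centred but 0.02 with the GC trend removed, its exons being 41.6% GC. Sdc2 thus stood at 0.607 of Sdc1 in the library labelled TGFBR3 OE and at 0.320 of it in the library labelled control, a log2 difference of 0.92 (0.87 to 0.98) that became 0.25 with the GC trend removed. The syndecans together summed to 316 and 300 FPKM.

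Cd44 had the highest log2 ratio of (FPKM + 1) of all 34 genes, but Itgb7 was higher when centred, with the GC trend removed and without the added 1. Sdc3 (0.47) and Itga3 (0.29) were also above Cd44 with the GC trend removed. Without the added 1, so were the low genes Itga10 (0.83), Itgae (1.15) and Itgal (1.77). Cd44 (chromosome 2, 102811141 to 102901665, minus strand, mm10), the hyaluronan receptor, stood at 59.7 FPKM from 27465 counts and at 37.6 FPKM from 23549 counts. The count was higher in the library labelled TGFBR3 OE although that library held fewer counts in all. The log2 ratio was 0.65 (0.63 to 0.68), and 1155 of the 11213 genes with a mean of at least 1 FPKM lay higher. It was 0.50 when centred, 0.26 with the GC trend removed and 0.41 with the length trend removed, above 0 in each.

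The collagen-responsive kinases and dystroglycan differed little on the log2 (FPKM + 1) scale. Ddr1 was at 27.7 and 29.9 FPKM, with a log2 ratio of −0.11 (−0.14 to −0.07) that turned to 0.18 with the GC trend removed. Ddr2, the form of mesenchymal cells, was at 26.5 and 27.8 FPKM, with a log2 ratio of −0.07 (−0.09 to −0.04), and at −0.45 with the GC trend removed. Cd44 and Ddr2 have exons of the same GC content (45.1% each), and Cd44 stood at 2.25 times Ddr2 in the library labelled TGFBR3 OE and 1.35 times Ddr2 in the library labelled control. That difference was 0.74 on the log2 scale (0.70 to 0.77), and 0.71 with the GC trend removed. Dag1, whose product is cut into the α and β dystroglycan chains, was at 37.9 FPKM (16340 counts) and 40.1 FPKM (23552 counts), a log2 ratio of −0.08 (−0.11 to −0.05).

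Exon GC content moved with the ratios of the receptors and with those of all genes. In 20 bins of the genes with a mean of at least 1 FPKM, the median log2 ratio without the added 1 went from 0.61 in the bin of lowest GC content to −0.30 in the bin of highest. Across genes, which are not independent replicates and share the same libraries, Pearson's r of the log2 ratio of (FPKM + 1) with exon GC content was −0.39 over 11207 genes. Over the 17 receptors r was −0.46 and Spearman's rho −0.35. The sign of 4 receptors turned when the trend was removed: Itgb1, Itgav, Itga8 and Ddr1. Itga11, Itga9 and Itgb3 lay well below the bin medians at their GC content. Ddr2 (−0.45 with the trend removed) and Itgav (−0.28) were also below them. Cd44 (0.26), Sdc3 (0.47) and Itga3 (0.29) lay above them. The part of GC content in these differences was not tested.

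**Figure D4:**
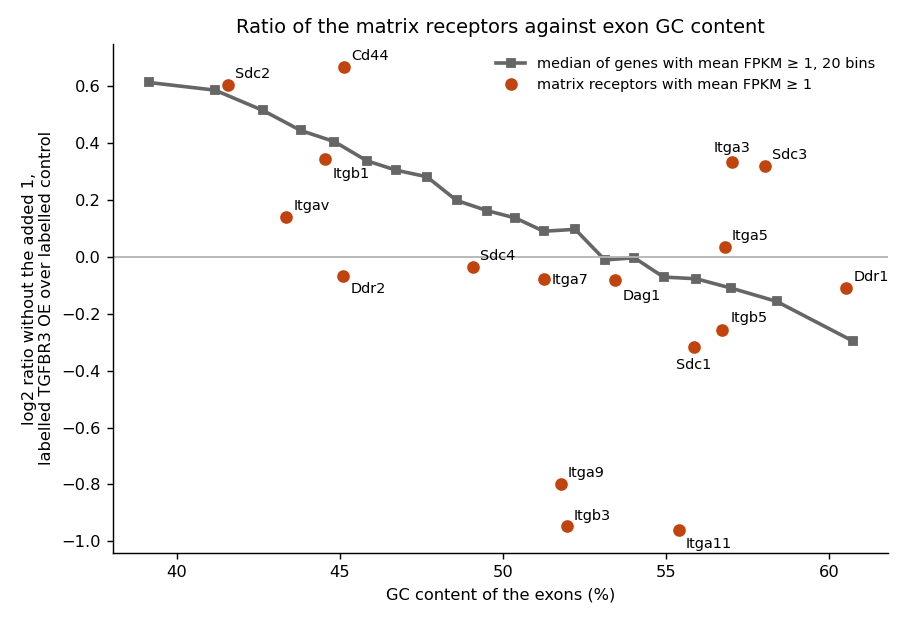
Log2 ratio without the added 1, the library labelled TGFBR3 OE over the library labelled control, against the GC content of the exons (%), for the 17 non-leukocyte receptors with a mean of at least 1 FPKM (points) and as the median of all such genes in 20 bins (line). The line runs from 0.61 to −0.30, Itga11, Itgb3 and Itga9 lie furthest below it, and Sdc2 and Itgb1 lie near it.

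Among the genes of the ligands of these receptors, most were lower in the library labelled TGFBR3 OE. Of 29 ligand genes, 5 were 2-fold lower and none was 2-fold higher on the log2 (FPKM + 1) scale. Over all genes the shares were 0.475% and 1.41%, genes below 1 FPKM included, where the added 1 hides differences. Of the ligands, 27 had a mean of at least 1 FPKM. Centred, 9 ligands were 2-fold lower, beside 1.6% of all genes with a mean of at least 1 FPKM. The median of the 29 was −0.59, with 25 of them below 0. The median was −0.84 for 10 collagen genes, −0.45 for 8 laminin and nidogen genes, and −0.07 for 11 ligands of RGD-binding, α4 and α9 integrins. Fn1, which encodes fibronectin, the ligand of α5β1, was at 577 and 1403 FPKM, a log2 ratio of −1.28 (−1.29 to −1.28). It was −1.43 when centred and −1.42 with the GC trend removed. Beside it, Itga5 was at 0.04 (−0.12 centred, 0.14 with the GC trend removed) and Itgb1 at 0.34 (0.19 and −0.06).

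All 10 collagen genes were below 0, as was Itga11, whose product binds the fibrillar collagens among them. On the log2 (FPKM + 1) scale the other collagen receptor genes were nearer 0: Ddr1 (−0.11), Ddr2 (−0.07), Itga1 (−0.02), Itga2 (−0.03) and Itga10 (0.19). The last 3 were at 0.41 FPKM or below, where the added 1 draws ratios towards 0. Without it they were at −0.15, −0.12 and 0.83. With the GC trend removed Ddr1 was at 0.18 and Ddr2 at −0.45. Col6a1 was at 29.2 and 75.2 FPKM (log2 ratio −1.33), Col6a2 at 10.5 and 25.9 FPKM (−1.22) and Col3a1 at 95.8 and 199 FPKM (−1.05). Col1a1, a main ligand of α11β1, was at 467 and 870 FPKM, a log2 ratio of −0.89, close to the −0.92 of Itga11. The fifth ligand gene that was 2-fold lower was Fbn1, which encodes fibrillin-1 (−1.03). Lama2, the laminin chain of muscle basement membrane and a ligand of α7β1 and dystroglycan, was at 3.90 and 8.50 FPKM (−0.96, or −1.30 with the GC trend removed), while Itga7 was at −0.04 and Dag1 at −0.08.

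On the log2 (FPKM + 1) scale a few ligands were higher or nearer 0, and some of these moved with the GC trend removed. Vcam1, a ligand of α4 and α9, was at 15.6 and 11.2 FPKM, a log2 ratio of 0.45 that became −0.10 with the GC trend removed. Tnc, which encodes tenascin C and was the only ligand 1.5-fold higher, was at 63.7 and 39.6 FPKM (0.67), while 15 ligands were 1.5-fold lower. Over all genes, those below 1 FPKM included, the shares 1.5-fold higher and lower were 6.46% and 2.33%. Spp1, which encodes osteopontin, was at 403 and 450 FPKM (−0.16, or −0.60 with the GC trend removed). Vtn, the vitronectin gene, had 4 and 11 counts. Has2, which encodes a hyaluronan synthase, was at 1.9 and 1.43 FPKM, a log2 ratio of 0.26 that became −0.10 with the GC trend removed, and none of the 7 hyaluronan synthesis and turnover genes was 1.5-fold different.

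Inside the cell, 39 genes of the adhesome, the proteins that join integrins to actin, were examined. None was 2-fold different, 7 were 1.5-fold higher and none was 1.5-fold lower, beside 6.46% and 2.33% of all genes. Those shares include genes below 1 FPKM, where the added 1 hides differences. Of the 39 genes, 38 had a mean of at least 1 FPKM. Among the 11213 genes at that level, 1496 lay above the 0.58 of Sdc2, which is just under 1.5-fold. The median of the list was 0.15 (−0.049 with TMM factors, −0.080 with median-of-ratios factors and −0.064 without the length trend), beside 0.14 for all genes with a mean of at least 1 FPKM. By size of ratio the first 4 were Lims1 (18.9 and 9.88 FPKM, log2 ratio 0.87) and Lims2 (12.3 and 7.25 FPKM, 0.69), which encode the PINCH adaptors of integrin-linked kinase, Pdlim5 (22.2 and 12.4 FPKM, 0.79) and Cav1 (66.8 and 39.1 FPKM, 0.76). With the GC trend removed the values of Lims1, Pdlim5 and Cav1 were 0.32, 0.30 and 0.36, and that of Lims2 was 0.79. Centred, the median of the list was 0.02.

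Latent TGF-β, which some αv integrins release, is stored in the matrix by some, not all, of the LTBP proteins. Storage itself was not measured here. The list held 8 genes: Tgfb1, Tgfb2, Tgfb3, Lrrc32 and the 4 LTBP genes. None was 2-fold different, none was 1.5-fold higher and 2 were 1.5-fold lower, beside 6.46% and 2.33% of all genes at 1.5-fold. The 2 were Ltbp2 (87.5 and 151 FPKM, −0.78) and Ltbp3 (24.2 and 39.8 FPKM, −0.69). Ltbp1 was at 4.53 and 2.82 FPKM (0.53) and Ltbp4 at 1.82 and 2.72 FPKM (−0.40).

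Partners of dystroglycan and of the syndecans were examined in 3 lists, and the 4 genes with the largest ratios among those with a mean of at least 1 FPKM are given for each. Among 12 genes of the dystroglycan complex, with a median of 0.11, these were Sgcb (0.51), Utrn (0.41), Sntb2 (0.38) and Sspn (−0.19). Among 12 genes that glycosylate dystroglycan, with a median of −0.03, they were Pomt1 (−0.46), Pomgnt1 (−0.35), B3galnt2 (0.30) and Rxylt1 (0.21). Among 17 heparan sulfate genes, with a median of −0.05, they were Sdcbp, which encodes syntenin, a binder of the syndecan tails (0.50), and the chain-modifying or chain-building enzymes Glce (0.36), B3gat3 (−0.33) and Hs2st1 (0.29). None of these 41 genes was 1.5-fold different, while 6.46% of all genes were 1.5-fold higher and 2.33% lower. Beside the 3 list medians, the median was 0.03 over all genes and 0.14 over genes with a mean of at least 1 FPKM. With the GC trend removed, the ratios of B3galnt2 (−0.06), Rxylt1 (−0.31), Glce (−0.05) and Hs2st1 (−0.02) turned below 0. Those of Sdcbp, Sgcb, Sntb2 and Utrn became 0.0029, 0.11, 0.10 and 0.24.

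**Figure D5:**
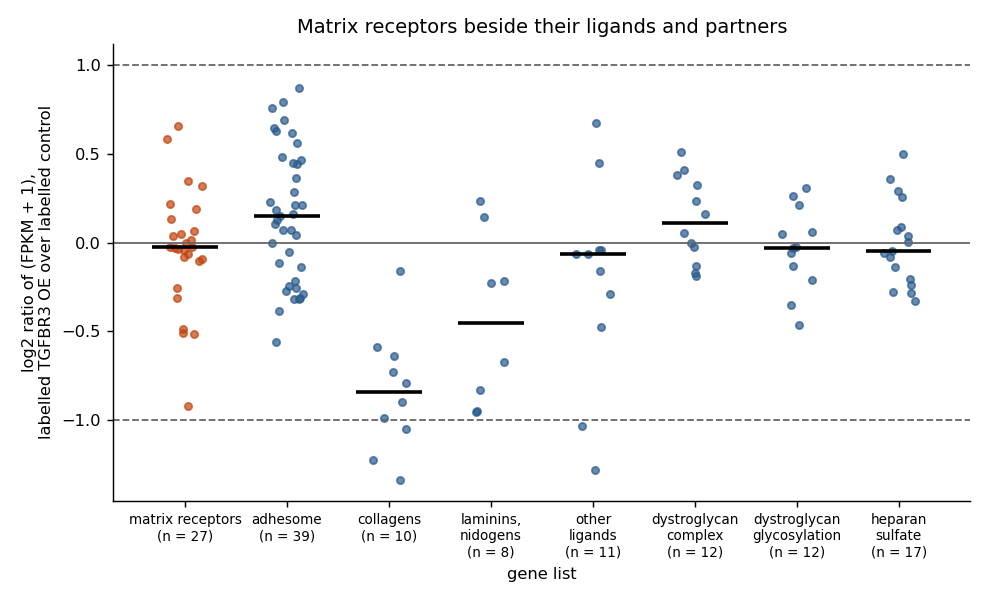
Log2 ratio of (FPKM + 1), the library labelled TGFBR3 OE over the library labelled control, of each gene (points) in 8 lists, with the median of each list as a bar; dashed lines mark 2-fold. The collagen list has the lowest median, −0.84, beside −0.03 for the 27 matrix receptors and 0.15 for the adhesome, which turned below 0 under 3 other scalings.

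The starts of the genes with the lowest ratio (Itga11), the highest ratio (Cd44) of (FPKM + 1) and the highest level (Itgb1) are shown so that the sequences behind these ends of the range can be compared. Each is 300 bases, from 250 bases before to 50 after the RefSeq start, read 5′ to 3′ on the strand of the gene from RefSeq on GRCm38.p6, and capitals mark a GC box (GGGCGG). They lie at chr9:62677605-62677904 (plus strand), chr2:102901616-102901915 (minus strand) and chr8:128685404-128685703 (plus strand).
Itga11: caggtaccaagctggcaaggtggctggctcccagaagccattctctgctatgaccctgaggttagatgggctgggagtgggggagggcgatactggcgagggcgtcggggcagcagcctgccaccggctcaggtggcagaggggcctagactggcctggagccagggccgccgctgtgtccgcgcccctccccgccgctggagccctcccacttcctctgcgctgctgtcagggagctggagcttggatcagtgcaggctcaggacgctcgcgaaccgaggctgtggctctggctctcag
Cd44: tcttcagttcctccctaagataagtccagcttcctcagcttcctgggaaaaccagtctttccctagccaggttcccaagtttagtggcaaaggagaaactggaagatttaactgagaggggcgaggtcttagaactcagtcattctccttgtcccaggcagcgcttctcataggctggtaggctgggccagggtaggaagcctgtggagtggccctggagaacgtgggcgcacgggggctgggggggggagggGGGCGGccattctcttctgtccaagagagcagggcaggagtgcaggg
Itgb1: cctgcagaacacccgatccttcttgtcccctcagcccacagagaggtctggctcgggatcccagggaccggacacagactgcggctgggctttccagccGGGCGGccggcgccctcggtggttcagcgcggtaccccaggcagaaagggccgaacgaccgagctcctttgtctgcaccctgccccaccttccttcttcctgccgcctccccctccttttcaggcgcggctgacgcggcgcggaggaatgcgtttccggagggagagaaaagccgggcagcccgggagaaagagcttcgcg

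RefSeq promoters were matched by symbol for 25 of the 34 genes, as 31 windows of that length. On either strand, the GC box was in 18 of the 31 windows (58.1%), beside 35.7% of 32851 mouse promoters of the same length. The AP-1 letters TGANTCA were in 4 (Ddr1, Itga3, Itga9 and Itgax), beside 7.81%. TATAAA was in that of Ddr2 alone, beside 13.6%, and the core letters of interferon-response elements in those of Itga2b and Itga3, beside 3.44%. The palindromic SMAD letters GTCTAGAC were in none, beside 0.213%. The motifs do not overlap in letters, and a match is a description of the window only. Itga11 held none of them, and Cd44 and Itgb1 held 1 GC box each.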

How the data were processed

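RNA of primary mouse FAPs was sequenced as paired reads of 150 nt from poly(A)-selected, strand-marked libraries, 1 library per plasmid. The authors deposited a raw count and an FPKM value, rounded, for each of 26082 genes of each library. The methods name STAR and FeatureCounts on mm10, while the submitters' processing notes name cutadapt 1.9, HISAT2 2.2.1, StringTie 2.1.6, DESeq2 and edgeR, so which tools made the values is not settled. Whether the counting used strand is not given in the sources used here. FPKM values depend on the total used for scaling, so that a few abundant genes can shift all others.

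The log2 ratio of (FPKM + 1), with a pseudocount of 1 and no filter, was the main measure, and 2-fold the call. Counting intervals came from the Clopper-Pearson method (95%), applied to how the counts of a gene were split between the libraries, and a gene at 3 counts or fewer was taken as at the floor. Intervals of differences between 2 genes use the Poisson variance of the log counts. Whether reads were collapsed by molecular identifiers before counting is not settled here, and reads that were not are not independent molecules. Intervals and floors cover counting error only. Plain ratios were made from counts and 1 scale constant, for genes above 3 counts in both libraries, an alternative chosen after seeing the data. Exon GC content and length came from GENCODE M21, which held 99.7% of the gene IDs. Trends were removed by scaling the FPKM of the library labelled TGFBR3 OE by the median in 20 bins. The computation was tested on simulated data with 200 changed genes. Python 3.11.15, pandas 2.3.3, scipy 1.17.1 and edgeR 4.0.16 (for TMM factors) were used. The alternatives were other pseudocounts, thresholds and scalings, CPM from counts, and removal of the GC or length trend.

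The genes and the lists were chosen with earlier results of these data known. Every receptor gene is named, and of the adhesome, ligand, latent TGF-β, dystroglycan and heparan sulfate lists the 4 genes with the largest absolute ratio at a mean of at least 1 FPKM, with Fn1, Spp1, Vcam1, Vtn, Lama2, Has2, Col1a1 and Col6a1 in any case. Fbn1, Tnc, Krt19 and Notch3 were named after their values were seen, as were the pairs of genes and the 3 promoters printed. A few genes of the lists were not analysed here.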

Additional observations from a re-analysis of the deposited data

How the results depend on the processing

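No paired analysis was possible because each group had 1 library, and for the same reason no replicate was left out. Of the 34 receptor genes, 26 had the same sign in all alternatives, 10 higher and 16 lower. These include Itga1, Itga2, Itga7, Itgb6, Itgb8, Itgae, Itgal and Itgax, whose counting intervals held 0, and Itgam, at 11 and 0 counts. For those genes a constant sign gives no measured direction. Among the 13 with a mean of at least 10 FPKM, 9 kept their sign (3 higher, namely Cd44, Sdc2 and Sdc3, and 6 lower). Part of this was fixed in advance: the filter on mean FPKM and the other pseudocounts on FPKM cannot turn a sign. Sdc2 fell to 0.02 with the GC trend removed, and Sdc3 to 0.04 with the length trend removed. The number of receptors 2-fold higher, 0 in the main measure, was 1 with a pseudocount of 0.1, 3 with no pseudocount on FPKM or on counts, and 2 at 1.5-fold. The number 2-fold lower, also 0, was 1 with a pseudocount of 0.1, after centring, as CPM, after removal of the length trend and at 1.5-fold, 2 with no pseudocount on FPKM or on counts, and 3 with TMM or median-of-ratios factors.

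TMM and median-of-ratios factors moved the median of the 27 receptors from −0.03 to −0.26 and −0.29, and removal of the length trend to −0.10. The same settings moved the dystroglycan median from 0.03 to −0.16 and −0.19 (both factors), and the heparan sulfate median from −0.05 to −0.27 and −0.30 (both factors) and −0.24 (length). The adhesome median of 0.15 went to −0.049 with TMM factors, −0.080 with median-of-ratios factors and −0.064 without the length trend, each of which turned its sign, and the ligand median of −0.59 to −0.91 without the length trend. The number of adhesome genes 2-fold higher, 0, was 1 with no pseudocount on FPKM or counts and 7 at 1.5-fold. Of the ligands, 5 were 2-fold lower, and 8 with no pseudocount on FPKM or counts, 9 after centring, 11 with TMM or median-of-ratios factors, 12 without the length trend and 15 at 1.5-fold, where 1 was higher. In the dystroglycan lists, 1 gene was 2-fold higher with no pseudocount on FPKM or counts and 1 was 2-fold lower with a pseudocount of 0.1. The counts at a pseudocount, threshold or centring follow from how those settings are built. TMM and median-of-ratios factors scale all genes of a library alike, so against plain CPM they shift every list in the same direction. For the other settings the cause was not tested. With 1 library per group the spread between cultures is unknown, and below 1 FPKM the added 1 hides differences that the plain ratio shows.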
